A study of Mus musculus with 3 samples.

Results

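The genes described here carry the cell division cycle of mammals from G1 to mitosis, and they were chosen by name: 19 genes of G1 control, 14 of DNA replication and 12 of mitosis, 45 of the 50600 genes in the tables. G1 control covers the D-type cyclins and their kinases, the inhibitors of these kinases, the RB family, the E2F factors and the cyclin E step. Replication covers the licensing of origins and the supply of nucleotides and clamps for DNA synthesis. Mitosis covers the mitotic cyclins and Cdk1, the kinases and checkpoint genes that drive and guard chromosome segregation, and the chromosome proteins Top2a and Mki67. All 45 were found by symbol. No level entered the rule that chose them, although earlier results of these data were known at the time.

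The series holds 3 RNA-seq libraries of primary T helper 1 (Th1) cells, the helper T cells that make interferon gamma, from C57BL/6NJ mice. All 3 carry the same donor entry and differ in their biological replicate number, the age and sex are not recorded, no treatment is named in the labels, and the file headers name a time of 2 hours that the labels do not explain. There is 1 group and no control group, so levels are described within and between libraries and no condition is compared. Whether the replicates are separate animals or cultures is not given, so the spread between them may be technical.

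The libraries held 4442901, 3123869 and 2950658 counted read pairs in replicates 1, 2 and 3. Levels are given as TPM, a share of all transcripts after division by length, computed from the deposited counts and exon lengths, so that genes can be compared per length; a count of 3, taken here as the floor of detection, equals 1.37 to 1.77 TPM for a gene with 1 kb of exons. All 10 T cell markers were at 1 TPM or more in every library (Trac 897 TPM and Cd4 107 TPM in the mean), and 3 of 5 Th1 markers were. Of these 5, Tbx21, the T-bet gene, had 19, 7 and 11 counts (2.53 TPM in the mean), Ifng had 1, 2 and 0 and Cxcr3 had 6, 2 and 2, while Stat4 was at 15.9 TPM and Il12rb2, opposed by Serbp1, at 11.9 TPM in the mean. Of 9 myeloid and dendritic markers 5 had no count and of 6 B cell markers 5 had none; Csf1r was at 158 TPM, with exons overlapped by Hmgxb3 on the other strand, Cd79a was at 36.4 TPM, and the other myeloid markers had means of 0.814 TPM or less. Of 6 CD8 T cell and NK cell markers 1 (Cd8b1) and of 4 erythroid markers 2 (Alas2 and Klf1) were at 1 TPM or more in every library. Because these are bulk samples, fewer cells in a phase and less RNA per cell cannot be told apart.

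The strand of a gene matters for what its value holds. Read pairs were counted with the strand setting 1 of the counting tool, and the strand that the library marks is not given in the sources used here. The mitochondrial gene mt-Nd6, which lies on the opposite strand to the other mitochondrial mRNAs, was at 28048, 23326 and 36098 TPM, against medians of 600, 352 and 296 TPM for 12 other mitochondrial mRNAs. Whether the counts of a gene come from its own RNA or from RNA of the other strand was not tested. Each level given here is that of the read pairs assigned to the gene, which need not be its own RNA. Genes are called opposed where their exons face exons annotated on the opposite strand, and unopposed where their span meets no gene of that strand. Of the 45 genes 13 were opposed, 27 were unopposed and 5 were overlapped outside their exons, and the opposed genes are given apart.

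As background, D-type cyclins bind Cdk4 or Cdk6 when a cell receives growth signals, and these kinases phosphorylate RB proteins, which then release E2F factors. Freed E2F turns on cyclin E and the replication genes, MCM helicases are loaded at origins, and S phase begins. Genes of G2 and mitosis are switched on later, in large part through the MuvB complexes with B-MYB and FOXM1, and are held off in resting cells by the DREAM complex, which contains E2F4 and an RB relative. In T cells, naive and memory cells rest outside the cycle, and antigen and costimulation bring them into rapid division.

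Genes of the cycle are known for start-site motifs that go with their phase, and 4 promoters are shown for that reason; 38 of the 45 genes were matched in the RefSeq promoter table (assembly GRCm38.p6; 44 windows, since some genes have more than 1 start). Mcm6 and Mcm5 are examples from replication and Cdk1 and Cdc20 from mitosis, all with matches, and the stretches shown differ in length. Not every promoter of a phase has these motifs: Pcna has no E2F-type match and Ccnb1 no TTTGAA. Each sequence runs 5′ to 3′ up to the base before the start site. Capitals mark matches on either strand to an E2F-type motif (TTTCCCGC, TTTGGCGC, TTTCGCGC or TTTGCCGC), to the cell cycle homology region letters TTTGAA, known from G2 and mitosis genes, or to CCAAT, the letters bound by NF-Y.
Mcm6 (chr1:128359706-128359825, minus strand): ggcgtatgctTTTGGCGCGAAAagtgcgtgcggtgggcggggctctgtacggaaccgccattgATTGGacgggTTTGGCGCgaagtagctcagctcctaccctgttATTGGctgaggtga
Mcm5 (chr8:75109259-75109508, plus strand): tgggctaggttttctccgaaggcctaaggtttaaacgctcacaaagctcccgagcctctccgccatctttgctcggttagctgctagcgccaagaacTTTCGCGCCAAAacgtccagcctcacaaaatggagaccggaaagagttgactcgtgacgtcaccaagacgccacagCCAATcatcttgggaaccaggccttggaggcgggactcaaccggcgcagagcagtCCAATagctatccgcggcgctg
Cdk1 (chr10:69352913-69353162, minus strand): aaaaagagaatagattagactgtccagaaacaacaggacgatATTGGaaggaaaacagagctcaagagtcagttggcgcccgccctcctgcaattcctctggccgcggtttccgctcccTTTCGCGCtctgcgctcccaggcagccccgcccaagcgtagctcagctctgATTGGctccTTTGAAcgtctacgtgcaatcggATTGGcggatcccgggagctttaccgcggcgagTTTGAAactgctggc
Cdc20 (chr4:118437344-118437463, minus strand): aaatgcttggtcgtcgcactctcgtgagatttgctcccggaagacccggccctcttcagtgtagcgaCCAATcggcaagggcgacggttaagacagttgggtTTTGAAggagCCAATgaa

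Over the windows of 250 bases before and 50 after the start, an E2F-type motif stood in 8 of 14 replication windows (57.1%), 5 of 20 G1 windows (25%) and 1 of 10 mitosis windows (10%), against 2.26% of all 32851 windows in the table. The single mitosis window was that of Cdk1, printed above. TTTGAA stood in 7 of 10 mitosis windows (70%), 1 of 14 replication windows (7.14%) and 3 of 20 G1 windows (15%), against 17.9% of all. CCAAT stood in 9 of 10 mitosis windows (90%), 10 of 14 replication windows (71.4%) and 9 of 20 G1 windows (45%), against 37.4% of all. In Mcm5 and Mcm6 matches of opposite strands overlap each other (TTTCGCGCCAAA and TTTGGCGCGAAA). A match is a description of the letters and not evidence of binding.

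Within each library the median level was highest for the replication genes and lowest for the mitosis genes. The median level was 9.44 ± 3.96 TPM (SD, n = 3 libraries) for the replication genes, 5.86 ± 1.98 TPM for G1 control and 0.292 ± 0.201 TPM for the mitosis genes, against 0 for all genes and 0.252 ± 0.051 TPM for protein-coding genes. Of the 45 genes 26 were at 1 TPM or more in every library, against 21.8% of all genes and 38.7% of protein-coding genes: 13 of 19 in G1 control, 10 of 14 in replication and 3 of 12 in mitosis. The SDs of the replication and G1 medians overlap, and the order of the phases was not tested. At the low end 10 genes did not pass 3 counts in any library: Cdkn2c in G1 control, Cdc6 and Rrm2 in replication, and Ccnb1, Ccnb2, Cdk1, Aurkb, Plk1, Bub1 and Birc5 in mitosis.

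**Figure D1:**
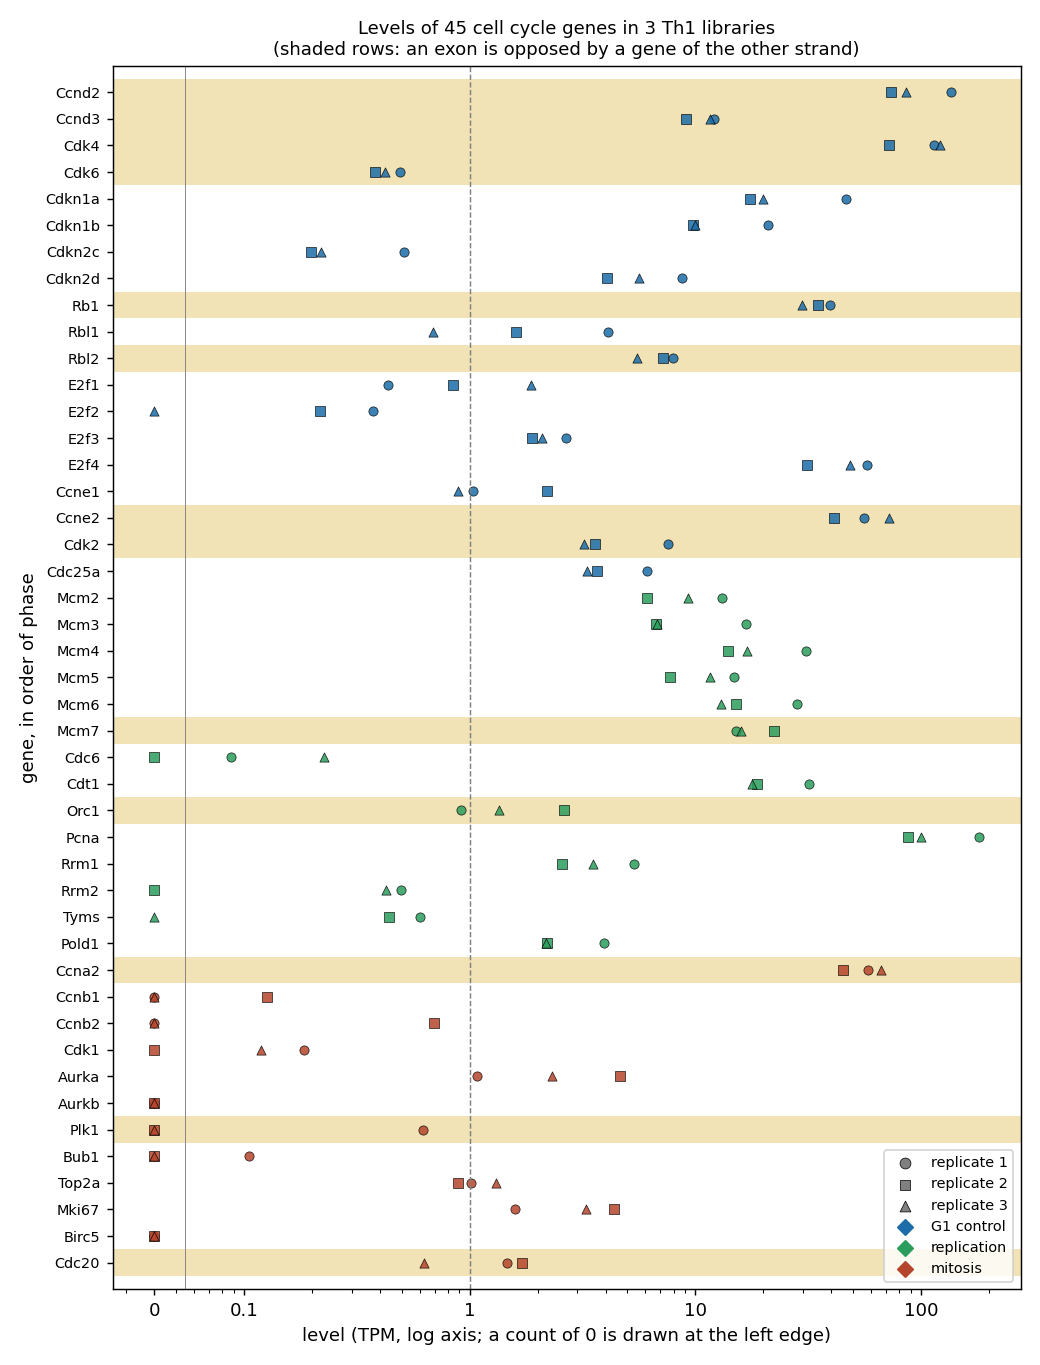
Levels of the 45 genes in each library, in order of phase (TPM, log axis; a count of 0 is drawn at the left edge; shaded rows are opposed genes; the dashed line is 1 TPM). Replication genes lie mostly above 1 TPM, and among the mitosis genes Ccna2 alone is above 10 TPM.

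In G1, the D-type cyclins and their kinases are all opposed. Ccnd2, cyclin D2 (chr6:127125162-127152193, minus strand, mm10), was at 136, 73.7 and 85.6 TPM in replicates 1, 2 and 3 (98.5 ± 33.2, SD, n = 3). Ccnd3, cyclin D3, was at 12.1, 9.05 and 11.6 TPM. In each library the 2 cyclins stood far apart, with no overlap of their ranges. Their log2 ratio within a library was 3.12 ± 0.32, which over the summed counts is a level per base 9.22 times higher for Ccnd2 (exact 95% interval 8.44 to 10.1, counting error only).

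Cdk4, the kinase partner of the D cyclins (chr10:127063534-127067920, plus strand), was at 114, 72.0 and 121 TPM, the second highest mean of the 45 genes at 102 ± 26. Its relative Cdk6 had 15, 10 and 10 counts, 0.43 ± 0.06 TPM. The 2 kinases did not overlap, with a log2 ratio of 7.56 ± 0.32. Cdk6 is a long transcript of 13989 exon bases, so its few counts stand for a still lower level per base.

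The 4 CDK inhibitors among the members are all unopposed. Cdkn1a (p21), which a p53 response raises, was at 46.7, 17.5 and 19.9 TPM. Cdkn1b (p27), the inhibitor tied to quiescence, was at 21.0, 9.72 and 9.96 TPM. In both, replicate 1 was the high library and replicates 2 and 3 lay close together. Cdkn1a was the higher of the pair in 3 of 3 libraries, with a log2 ratio of Cdkn1b to Cdkn1a of -0.99 ± 0.15; without the length correction the ratio was 0.03, since the counts of the 2 genes were alike and Cdkn1b has the longer exons (4552 against 2223 bases). Of the INK4 inhibitors, which act on Cdk4 and Cdk6, Cdkn2d (p19) was at 8.71, 4.06 and 5.61 TPM and Cdkn2c (p18) had 3, 1 and 1 counts and so did not pass the floor.

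Within the RB family, the pocket proteins that hold E2F, Rb1 and Rbl2 are opposed. Rb1 was at 39.3, 34.8 and 29.6 TPM and Rbl2 (p130) at 7.98, 7.19 and 5.53 TPM. Their log2 ratio (Rbl2 to Rb1) was -2.31 ± 0.07, the steadiest of the pairs formed. Rbl1 (p107), overlapped only outside its exons, had 54, 18 and 7 counts, 4.12, 1.60 and 0.69 TPM, so that replicate 1 stood apart.

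Among the E2F factors, E2f4 (chr8:105297663-105305370, plus strand, unopposed), best known as the repressor partner of the pocket proteins, led with 57.6, 31.3 and 48.5 TPM. The activator E2Fs were low: E2f3 was at 2.67, 1.89 and 2.09 TPM, E2f1 had 3, 5 and 10 counts and E2f2 4, 2 and 0. No library of E2f4 came near a library of the activators. The log2 ratio of E2f4 to E2f1 was 5.48 ± 1.12, with per-base ratio 46.8 (exact 95% interval 29.4 to 79.5), and the wide spread lay in E2f1, whose highest level was in replicate 3.

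At the cyclin E step, which drives entry into S phase, the opposed Ccne2 was at 55.7, 41.0 and 72.3 TPM and the unopposed Ccne1 at 1.03, 2.20 and 0.89 TPM. The 2 cyclins E did not overlap (log2 ratio 5.33 ± 1.05, n = 3). Cdk2, their kinase, was at 7.57, 3.60 and 3.22 TPM; its exons meet those of Pmel on the other strand over 34 bases. Cdc25a, the phosphatase that frees Cdk2 from inhibitory phosphate, was unopposed at 6.09, 3.65 and 3.30 TPM. Both were highest in replicate 1.

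Replication genes were led by Pcna, the sliding clamp of DNA polymerase (chr2:132249162-132253314, minus strand, unopposed). It was at 181, 87.3 and 99.4 TPM, the highest mean of the 45 genes (123 ± 51). Of the MCM2-7 helicase, the unopposed subunits in order of mean level were Mcm4 (30.9, 14.0 and 16.9 TPM), Mcm6 (28.3, 15.1 and 13.0 TPM), Mcm5 (14.8, 7.74 and 11.7 TPM), Mcm3 (16.7, 6.68 and 6.75 TPM) and Mcm2 (13.1, 6.13 and 9.23 TPM). The ranges of the 5 subunits overlapped except those of Mcm4 and Mcm2, and replicate 1 was highest in each. Mcm4 lay above Mcm2 in 3 of 3 libraries, by a log2 ratio of 1.09 ± 0.20 per length. Without the length correction the ratio was 0.15 ± 0.20 (p = 0.5, exact sign-flip permutation test), and in replicate 3 Mcm2 had the more counts (109 against 103).

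The sixth subunit, Mcm7, is opposed by Ap4m1 and Cops6 and ran the other way, with 15.1, 22.4 and 16.0 TPM and its highest value in replicate 2. Cdt1, the loader of the helicase, was unopposed at 31.7, 18.7 and 17.8 TPM. The other loader genes were low: Cdc6 had 1, 0 and 2 counts, and Orc1, of the origin recognition complex and opposed by Gm12743, had 7, 17 and 8 counts (1.63 ± 0.88 TPM). Licensing thus ranged from 22.7 ± 7.8 TPM for Cdt1 to 0.104 ± 0.114 TPM for Cdc6.

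For DNA synthesis, the large subunit of ribonucleotide reductase, Rrm1, was at 5.35, 2.57 and 3.53 TPM, whereas the small subunit Rrm2 had 3, 0 and 2 counts. Thymidylate synthase, Tyms, had 8, 5 and 0 counts. The catalytic subunit of polymerase delta, Pold1, overlapped outside its exons, was at 3.95, 2.19 and 2.18 TPM. All 4 thus lay far below Pcna, the fifth gene of this role.

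Of the 12 mitosis genes 4 were above the floor of 3 counts in every library, and Ccna2 was far the highest. Ccna2, cyclin A2 (chr3:36564865-36572150, minus strand), which acts in S and G2, was at 58.3, 45.2 and 66.6 TPM; it is opposed by Exosc9 over 510 exon bases, 12.5% of its own. The B cyclins and their kinase, which carry a cell into mitosis, were at the floor: Ccnb1 had 0, 1 and 0 counts, Ccnb2 0, 2 and 0, and Cdk1 2, 0 and 1. The unopposed genes of this phase therefore gave a median of 0 in each library.

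Aurkb, the kinase of the chromosomal passenger complex, and Birc5 (survivin), its partner, had no count in any library. A count of 0 allows up to 0.465, 0.543 and 0.600 TPM for Aurkb in replicates 1, 2 and 3. Bub1, of the spindle checkpoint, had 1, 0 and 0 counts and Plk1, a kinase of mitotic entry opposed by Gm44985, had 3, 0 and 0. No difference between libraries is detectable at this depth for these genes.

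The remaining mitosis genes were counted in every library. Aurka, the centrosomal kinase, had 6, 22 and 10 counts (1.08, 4.63 and 2.33 TPM), Mki67, the source of the Ki-67 antigen, had 35, 82 and 56 counts (1.59, 4.34 and 3.28 TPM), and Top2a, the topoisomerase that untangles chromosomes, had 20, 15 and 20 counts (1.01, 0.89 and 1.31 TPM). Aurka and Mki67 were lowest in replicate 1 and highest in replicate 2, the reverse of most unopposed genes of G1 and replication. The nearest gene of the other strand, Cstf1, lies 146 bases before the start of Aurka. Close neighbours were not particular to Aurka: Prkdc lies 466 bases before Mcm4 and AV099323 43 bases before Pcna, both highest in replicate 1. Whether such neighbours bear on the levels was not tested. Cdc20, an activator of the anaphase-promoting complex and opposed by Elovl1, had 6, 6 and 2 counts.

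The 7 pair ratios that could be formed of 10 planned kept their sign in 3 of 3 libraries. With 3 libraries the exact two-sided sign-flip permutation test can give no p below 0.25, and each pair had that value, also after Benjamini-Hochberg adjustment over the 7 pairs, so none passed. Cdkn2d with Cdkn2c, Rrm1 with Rrm2 and Ccna2 with Ccnb1 gave no ratio because the second gene did not pass 3 counts in any library. In 5 of the 7 pairs, those other than Cdkn1b with Cdkn1a and Rbl2 with Rb1, the first gene was the higher. An opposed gene takes part in 4 of the 7 pairs (Ccnd2, Ccnd3, Cdk4, Cdk6, Rb1, Rbl2 and Ccne2). There the ratio may hold reads of an annotated gene of the other strand. For all 7 pairs, which strand's RNA was counted was not tested.

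The 13 opposed genes had a median level of 10.9 ± 1.6 TPM and the 27 unopposed genes of 1.99 ± 0.80 TPM. By phase, opposed and unopposed members were at 22.7 and 4.35 TPM in G1 control, 9.72 and 10.2 TPM in replication, where the order was the other way by less than the SDs, and 1.27 and 0 TPM in mitosis, which holds 7 of the 27 unopposed genes. Over all protein-coding genes the medians were 4.29 ± 0.90 TPM for opposed genes and 0 for unopposed genes. The highest neighbour was Gm43126, an antisense gene at the tail of Ccnd2, with 5499, 4642 and 5465 counts; 372 of its exon bases, 86.7%, face exons of Ccnd2, and its level per base was 62.5 times that of Ccnd2. Pmel, facing Cdk2, had 2264, 1157 and 2503 counts and a level per base 89.8 times that of Cdk2. In these pairs fewer read pairs per base were assigned to the member than to its neighbour. Which strand's RNA they came from was not tested.

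In other pairs more read pairs per base were assigned to the member. Cdk4 faces Tspan31 over 641 bases, 19.7% of its exons, and Tspan31 was at 0.156 of its level per base. Ccne2 faces Ints8 over 609 bases (17.4%) with a ratio of 0.169, and Ccna2 faces Exosc9 with a ratio of 0.138. These 3 members, all tail to tail with their neighbours, are the opposed genes at 50 TPM or more apart from Ccnd2. Ints8, a subunit of the Integrator complex, had 234, 90 and 81 counts, and Exosc9, of the RNA exosome, had 121, 47 and 43, both highest in replicate 1. Ccne2 and Ccna2 themselves had their highest TPM in replicate 3. Bysl, facing Ccnd3, was at 7.74 times and Elovl1, facing Cdc20, at 9.94 times the member's level per base. Per base, Gm17590 was at 16.2 times Cdk6, and Gm45464 and Aktip were at 8.09 and 1.70 times Rbl2. Rcbtb2 and Lpar6 were at 0.585 and 0.104 of Rb1, and 9330179D12Rik, the second gene facing Ccnd2, was at 0.337 of it.

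**Figure D2:**
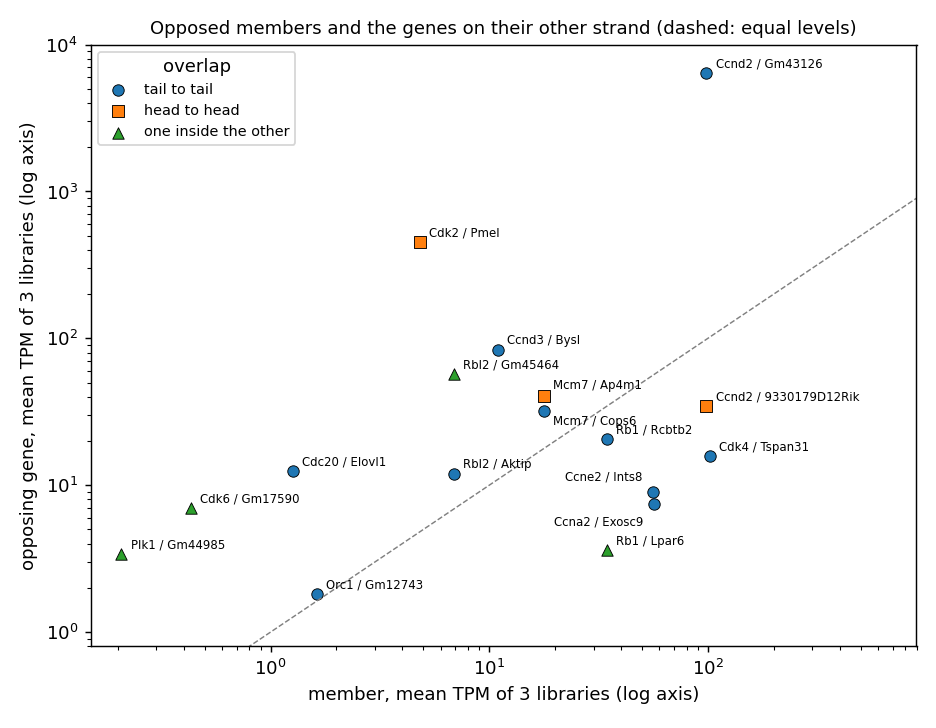
Mean level of each opposed gene (horizontal axis) against that of the gene on its other strand (vertical axis), both in TPM over 3 libraries on log axes, with the marker giving the shape of the overlap. Gm43126 and Pmel lie far above the dashed line of equal levels, while Tspan31, Ints8 and Exosc9 lie below it.

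Replicate 1 differed from the other libraries over the whole table: opposed genes took 55.1% of its counts, against 69.1% and 67.3% in replicates 2 and 3, and unopposed genes 38.7%, against 25.6% and 27.8%. On the TPM scale the ratio of replicate 1 to the mean of replicates 2 and 3 had a median of 1.78 over 14 unopposed members and 1.79 over all unopposed genes, and of 1.18 over 11 opposed members and 1.12 over all opposed genes (members with at least 30 summed counts). After TMM scaling, which sets libraries level over the bulk of genes, the medians were 1.19 for 13 unopposed members against 1.17 for all unopposed genes, and 0.79 for 10 opposed members against 0.73 for all opposed genes. Of the unopposed members, Pcna, Mcm2, Mcm4, Mcm5 and Mcm6 lay within the quartiles of all unopposed genes kept (0.98 to 1.37). Mcm3 (1.63), Cdkn1a (1.64) and Cdkn1b (1.4) lay above the upper quartile and E2f4 (0.9525) below the lower. Of the opposed members, Cdk2 (1.454) and Ccnd2 (1.125) lay above the upper quartile of all opposed genes kept (1.106). Mcm7 (0.5132) lay below the lower quartile (0.5226). The part of the shift over all genes of a class in these values was not tested.

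**Figure D3:**
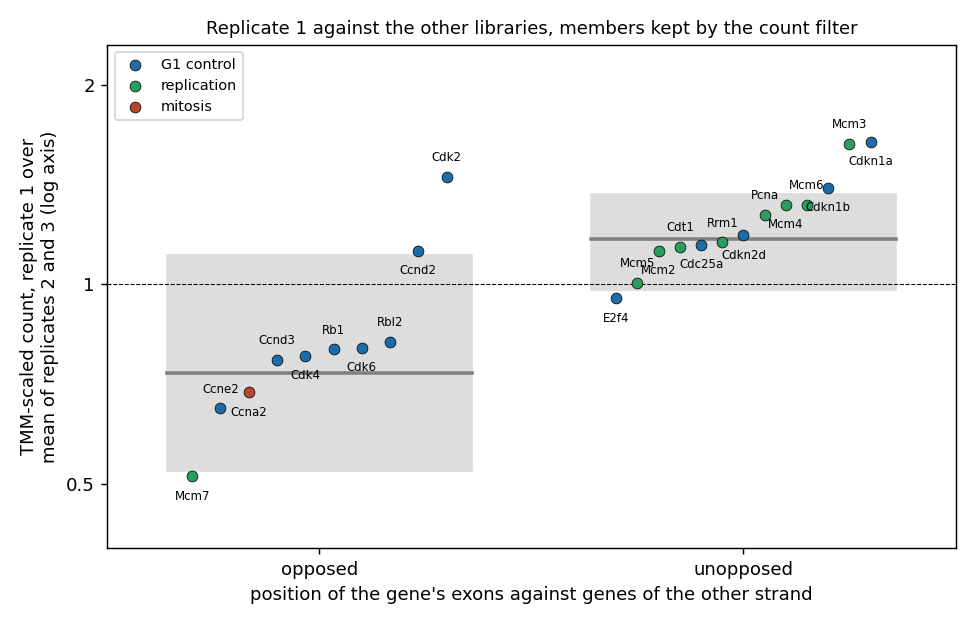
TMM-scaled count in replicate 1 over the mean of replicates 2 and 3 (log axis) for the 23 opposed or unopposed members kept by the count filter; the grey line and band give the median and quartiles of all kept genes of that class. The median was 1.19 for unopposed members and 0.79 for opposed members. Of the opposed members Mcm7 was lowest, and Cdk2 (1.454) and Ccnd2 (1.125) lay above 1.

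Variation between the libraries was tested on all 9469 genes kept by a count filter, 27 of the 45 members among them; the other 18 members had too few counts. By a chi-square test on counts at edgeR's TMM library sizes, with Benjamini-Hochberg adjustment over all genes, 16 members varied beyond counting noise, against 59.6% of all genes kept, a share near that of the members. Leaving out replicate 1 gave 7 of 27 members, against 2476 of 9677 genes kept. Without replicate 2 the counts were 13 of 27 members and 4299 of 10139 genes. Without replicate 3 they were 10 of 28 members and 4816 of 10185 genes. The genes with the largest ratio of highest to lowest TMM-scaled count were Mki67 (24.2, 103 and 73.8; 4.28 times, adjusted p = 4.51e-13), Mcm7 (101, 235 and 158; 2.33 times, adjusted p = 3.01e-13) and Ccne2 (294, 339 and 566; 1.92 times, adjusted p = 7.47e-22). The first 2 were lowest in replicate 1 and highest in replicate 2, and Ccne2 was highest in replicate 3.

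Against the spread of genes of like abundance (edgeR deviance at the trended dispersion, common coefficient of variation 28.0%), 0 of 27 members passed after Benjamini-Hochberg adjustment, against 0.253% (24) of all genes kept. Without adjustment, at the 0.05 level, the edgeR test gave 1 member, Mki67, and 610 of all genes. DESeq2's dispersion estimates, which give no p-value, flagged 0 members and 4 genes as outliers above the fitted dispersion. Scaled over unopposed genes alone, 2 of 13 unopposed members varied beyond counting noise, against 36% of all unopposed genes kept. These were Cdkn1a, with scaled counts of 144, 103 and 106 (adjusted p = 0.0315), and E2f4, with 195, 203 and 285 (adjusted p = 0.000389). Cdkn1a was high in replicate 1 and E2f4 in replicate 3. On that scale Pcna was nearly level, at 601, 554 and 572 (adjusted p = 0.501).

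Other genes of each phase, from lists of 16, 39 and 42 genes, gave medians of 4.32 ± 1.66 TPM for G1, 5.48 ± 1.37 TPM for replication and 1.04 ± 0.26 TPM for mitosis, with 12, 27 and 18 genes at 1 TPM or more in every library. The highest unopposed genes of G1 were Tfdp1, the DP partner of E2F (10.7 ± 4.7 TPM), E2f6, a repressor E2F (8.44 ± 4.49 TPM), and Lin54, the DNA-binding subunit of MuvB (4.99 ± 3.11 TPM). The highest opposed ones were Ccnh of the CDK-activating kinase (66.3 ± 14.7 TPM, facing Rasa1), E2f5 (49.2 ± 21.9 TPM) and the histone chaperone Rbbp4 (23.6 ± 13.3 TPM). None of the unopposed 3 reached the level of E2f4.

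Of replication, the highest unopposed genes were Orc3 of the origin recognition complex (19.1 ± 3.1 TPM), Rpa1, the large subunit of the single-strand binding protein (17.1 ± 6.3 TPM), and Pold2 of polymerase delta (13.5 ± 7.2 TPM). The highest opposed ones were Gins2 of the replicative helicase (189 ± 27 TPM, facing Gse1), Rfc5 of the clamp loader (165 ± 39 TPM, facing Wsb2) and thymidine kinase Tk1 (56.6 ± 20.7 TPM, facing Afmid). Gins2 and Rfc5 lay above Pcna in the mean. Unlike most unopposed members, Orc3 was highest in replicate 2, at 22.5 TPM against 16.4 and 18.3.

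Of mitosis, the highest unopposed genes were Smc4 of condensin (121, 87.4 and 56.3 TPM), Pttg1, securin (12.9 ± 5.5 TPM), and Cks2, a small binding partner of CDKs (12.7 ± 7.4 TPM). Smc4 thus stood far above every unopposed mitosis member. The highest opposed ones were the mitotic kinesin Kif20a (73.7, 69.5 and 81.2 TPM, facing Cdc23), Cdca8 (12.1 ± 3.2 TPM), a partner of Aurkb in the passenger complex, and Pkmyt1, the inhibitory kinase of Cdk1 (9.41, 4.18 and 10.4 TPM). Opposed genes had the higher median in each of these lists: 10.01 against 2.65 TPM in G1, 7.96 against 4.38 TPM in replication and 4.56 against 0.638 TPM in mitosis.

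**Figure D4:**
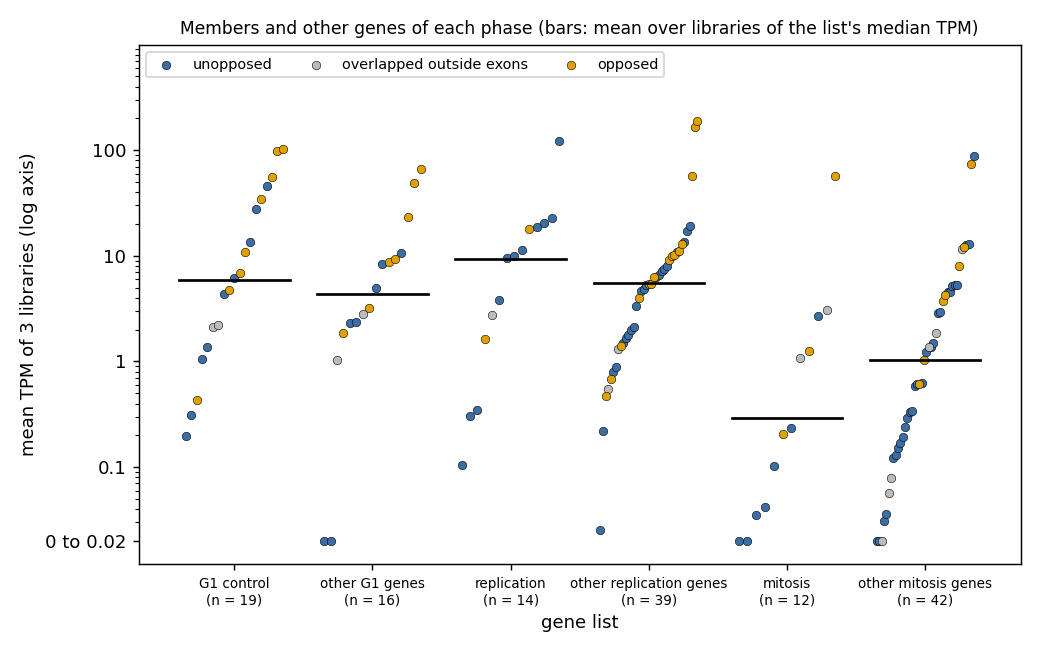
Mean TPM over 3 libraries (log axis) of the 45 members and of the other genes of each phase, coloured by position against genes of the other strand; bars give the mean over libraries of the list's median. Medians are highest for the replication members (9.44 TPM) and lowest for the mitosis members (0.292 TPM).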

How the data were processed

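Gene tables of 3 Th1 libraries were used. The deposited values are counts of read pairs per gene, made by the authors with featureCounts 1.4.6-p4 on exons of GENCODE vM13 (assembly mm10), both mates mapped and strand setting 1, per the file headers. Total RNA is the labelled molecule, although the library protocol linked there is titled for poly(A)+ RNA. Symbols were matched for 50376 of 50600 genes.

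TPM was computed from counts and exon lengths; pair ratios used a pseudocount of 0.1 TPM. Variation between libraries was tested with a chi-square test at TMM library sizes (edgeR 4.0.16 in R 4.3.3, filterByExpr minimum count 10) and with edgeR's deviance at the trended dispersion, both with 2 degrees of freedom and a false discovery rate of 0.05; DESeq2 1.42.0 was an alternative. Pair ratios used an exact sign-flip permutation test. Scripts were tested on simulated data.

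All members are accounted for. Full values were given for members at 10 TPM or more in the mean and for both ends of each role, and for the 3 highest opposed and 3 highest unopposed genes of each list. The members and lists were chosen with earlier results of these data known. Intervals and floors cover counting error only. Scaling, filter, length correction, the overlap rule and each library left out in turn were the alternatives tried.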

Additional observations from a re-analysis of the deposited data

How the results depend on the processing

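The number of members beyond counting noise (16 of 27) was 2 of 13 when only unopposed genes were scaled and tested. It was 20 of 27 with library totals and 20 of 43 without a count filter, and 7 to 13 with a library left out. Over all genes the count of 5642 of 9469 became 1536 of 4272 among unopposed genes and, without replicate 1, 2476 of 9677. With library totals it was 7125 of 9469 and without a filter 6816 of 19067. No member passed the trend test under any alternative run. Over all genes its count of 24 became 6 with library totals, 44 without a filter and 55 among unopposed genes. It was 3 to 21 with a library left out. DESeq2's dispersion outlier flag, used in place of the test, marked 0 members and 4 genes. The median level of all members was 7.76 as CPM and 18.9 as TPM scaled over unopposed genes; it was 19.0 and 28.9 for G1 control, 24.1 and 45.7 for replication, and 1.51 on the unopposed scale for mitosis. Over all genes the shift on the log2 scale was 0.81 as CPM and 2.35 on the unopposed scale. The CPM value is a summary, since dropping the length correction moves each gene by its own exon length. Opposed members were 6 where at least 0.1 of the exon bases had to overlap. The ratio of Cdkn1b to Cdkn1a reversed to 0.034 as CPM (p = 0.75, exact sign-flip permutation test); 34 of 35 pair alternatives kept their direction, with p of 0.25 to 0.75. No paired analysis was possible because there is 1 group. The depth limits genes at or under 3 counts.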
